A study of Lens culinaris with 20 samples.

Results

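The candidates described here are small RNAs of 21 and 22 nt that the deposited lentil (Lens culinaris) table names with the prefix lcum and not with the name of a known miRNA. After rows with the same mature sequence were reduced to the row with the most reads, 312 sequences had such a name and length, and the 104 of them that were above 0 in 3 or more of the 20 libraries were kept. They are 104 of the 1464 features of the table, and 61 are 21 nt long and 43 are 22 nt long. The read counts therefore chose the members, through the number of libraries in which each was seen. At the edge of the rule, lcum-miR-114172_54-5p was kept with 18, 28 and 8 reads in the 3 stem libraries, lcum-miR-189539_22-5p with 45 reads in all and lcum-miR-140532_37-5p with 40.5. Just outside it, lcum-miR-126054_45-5p had 92 reads, lcum-miR-101971_65-3p 65 and lcum-miR-156804_31-3p 54, each in 2 libraries.

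Small RNA was sequenced from 7 tissues of lentil, a grain legume, to profile miRNAs across the plant. Flowers had 2 libraries, and flower buds, young pods, stem, roots, shoots and mature leaves had 3 each. RNA came from pooled material, and cultivar, plant age and treatment are not given in the labels used here. The labels do not say how the pools behind the libraries of 1 tissue relate to each other, so the p-values speak only of the variation among these libraries, which may be technical.

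Plant miRNAs are cut by a Dicer-like enzyme from the stem of a fold-back transcript, which gives a duplex of a 5′ arm and a 3′ arm strand with short overhangs at both 3′ ends. One strand is loaded into an Argonaute protein and guides the cutting or repression of matching mRNAs, and the first base of the strand helps to decide which Argonaute takes it. The 22 nt class is known in legumes for members such as miR482, which targets disease resistance genes and sets off production of secondary small RNAs. A listed sequence that lies exactly in its precursor, with the opposite arm also sequenced, has more of these marks of a miRNA than a sequence seen alone.

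Of the 104 candidates, 83 lay letter for letter in the precursor listed for them, and 1 more, lcum-miR-201787_20-5p, did so apart from an unread first base. Its other bases are those of a named miRNA on the same precursor, mtr-miR169k_R+1_1ss5CT, with 1872 reads. It cannot be told apart from that miRNA. The other 20 each differed from the precursor by 1 substitution. An exact entry on the opposite arm of the same precursor was listed for 24 candidates, lcum-miR-201787_20-5p among them, from 15 precursors. In 8 of these precursors the predicted duplex had 2 nt overhangs at both 3′ ends. These 8 pairs are shown because they have the most complete precursor evidence in the table. The letters are DNA, written 5′ to 3′, and capitals mark the seed, bases 2 to 8.
lcum-miR-5092_3015-5p: cATCAACAttcactcagaaca
lcum-miR-1235_15776-3p: tTTTGGGTgaatgttgatgcg
lcum-miR-35633_352-5p: aATGCTTCtggtggttcacgt
lcum-miR-1238_15730-3p: aTGAACCAccagaagcatttc
lcum-miR-9120_1669-5p: aGGTGGACtcaaagagactag
lcum-miR-101998_65-3p: aGTCTCTTtgagtccaccttc
lcum-miR-7726_1968-5p: tAGATGATattctcttgcctgc
lcum-miR-9558_1592-3p: aGGAAGAGgatttcatctagc
lcum-miR-7860_1938-5p: tTAATCAAggaaaatacggccg
lcum-miR-153256_32-3p: aCTGTGTTtccttgattgaag
lcum-miR-211469_19-5p: aATGCTTCagatgcttcaggc
lcum-miR-12148_1248-3p: tTGAAGCAtctgaagcatttc
lcum-miR-62338_149-5p: aACGTGGTtggcctaattcaa
lcum-miR-59634_160-3p: gAGTTAGGccaaccacgtttc
lcum-miR-60522_157-5p: gTGATATTgtttctgctcatc
mtr-miR171g: cGAGCCGAatcaatatcactc
The opposite arm of lcum-miR-60522_157-5p carries the name of a known Medicago truncatula miRNA of the miR171 family, which targets GRAS transcription factors, and lcum-miR-153256_32-3p was seen in 2 libraries only and is not a member.

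The precursors of 3 pairs show how the arms lie in the fold. Here capitals mark the arms as the precursor spells them. The first precursor has 87 bases and a predicted minimum free energy of -45.2 kcal/mol, the second 101 bases and -57.2 kcal/mol, and the third 115 bases and -42.4 kcal/mol.
lcum-miR-5092_3015-5p with lcum-miR-1235_15776-3p: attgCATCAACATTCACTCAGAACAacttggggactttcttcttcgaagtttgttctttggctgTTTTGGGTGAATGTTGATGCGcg
lcum-miR-7726_1968-5p with lcum-miR-9558_1592-3p: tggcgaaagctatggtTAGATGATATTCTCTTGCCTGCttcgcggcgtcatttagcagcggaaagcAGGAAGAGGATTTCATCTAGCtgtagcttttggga
lcum-miR-60522_157-5p with mtr-miR171g: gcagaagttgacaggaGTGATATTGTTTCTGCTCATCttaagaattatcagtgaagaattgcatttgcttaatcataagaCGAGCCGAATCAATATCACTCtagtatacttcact

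A further 7 precursors had both arms exact but other overhangs. lcum-miR-74673_111-5p and lcum-miR-91289_79-3p, for example, overhung by -2 nt at both ends, which means that each 3′ end stopped short of the other strand. Known names also occurred here on the opposite arm. They were mtr-MIR5204-p5_1ss18AG opposite lcum-miR-53252_192-3p and mtr-miR169k_R+1_1ss5CT opposite lcum-miR-105757_61-3p. In 5 more precursors 1 or both arms differed from the precursor by a substitution, and 4 of these had 2 nt overhangs at both ends. Substitutions are written as the precursor base, the position from the 5′ end of the mature sequence and the mature base. The pair lcum-miR-7485_2028-5p and lcum-miR-56820_174-3p carried T17C and G3A, and in the predicted fold these positions pair with each other.
lcum-miR-7485_2028-5p: tAAGATGTagccatttctgtt
lcum-miR-56820_174-3p: cAAAAATGgctacatcttagt

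Over the 20 substituted candidates, 7 substitutions were G to A, 5 were C to T and 8 were of other kinds. The first base carried 3 of them, the seed 7 and the last 3 bases 6.

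The candidates were set beside the 202 features of 21 and 22 nt that carry the name of a known miRNA and met the same detection rule. Candidates lay exactly in their precursor in 80.8% of cases against 70.8% of the named miRNAs, a comparison in which 12 named miRNAs had no precursor listed. With RNAfold, 75.0% of candidates and 65.3% of named miRNAs lay on a hairpin arm, here meaning at most 5 unpaired bases and pairing to the other side only. An exact opposite arm was listed for 23.1% of candidates against 39.1% of named miRNAs. The 12 named miRNAs with no precursor count as lacking a hairpin arm and an opposite arm as well. The first base was T (U in the RNA) in 36.5% of candidates against 47.5%, and A in 28.8% against 15.8%. These shares are descriptions, with no test, and the groups also differed in abundance, with a median of 74 reads for candidates and 386.5 for named miRNAs. How entries of either class were called is not stated in the labels, so the shares do not rank how well the classes are supported.

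**Figure D1:**
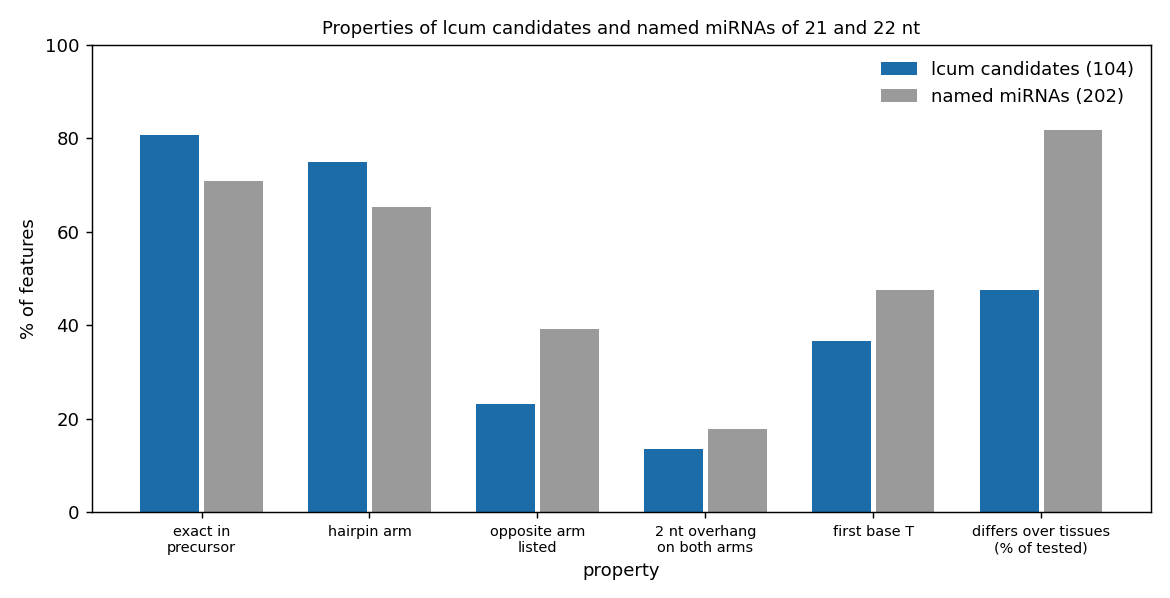
Percent of features (vertical axis, from 0) with each property for the 104 lcum candidates and the 202 named miRNAs of 21 and 22 nt; the last pair of bars is a percent of the features tested. The candidates were higher for exact placement (80.8% against 70.8%) and lower for a listed opposite arm (23.1% against 39.1%). The shares do not rank how well the classes are supported.

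The lengths differed among the candidates themselves. A hairpin arm was found for 83.6% of the 21 nt candidates and 62.8% of the 22 nt candidates. An opposite arm was listed for 19 of the 61 candidates of 21 nt and 5 of the 43 of 22 nt. T came first in 27.9% of the 21 nt candidates and 48.8% of the 22 nt candidates.

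The candidates had 101 different seeds, and 7 of them shared a seed with a named miRNA of 21 or 22 nt. lcum-miR-35633_352-5p and lcum-miR-211469_19-5p, both printed above, shared a seed with each other while lying on different precursors. The most abundant candidate close to a named miRNA was lcum-miR-3176_4995-3p, which differs from gma-miR482a-3p_L-2_1ss5CA, a variant of soybean miR482a, by T21C, written here as the base of the named miRNA first. They are shown with lcum-miR-2590_6280-5p, the opposite arm on the precursor listed for the candidate.
gma-miR482a-3p_L-2_1ss5CA: tTACCAATtccgcccattccta
lcum-miR-3176_4995-3p: tTACCAATtccgcccattccca
lcum-miR-2590_6280-5p: gGAATGGGttaattggttaga
T21C also separates the candidate from its own listed precursor, which at this site spells the named miRNA letter for letter.

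Other close pairs were less abundant. lcum-miR-172846_26-3p differs from mtr-MIR171b-p3_1ss20TC by G3T, inside the seed, and had 0.799% of its reads. G3T also separates this candidate from its own listed precursor. lcum-miR-191883_22-5p differs from mtr-MIR399j-p5_1ss15TC by G17A and had 4.37% of its reads, 13.5 in all. Both are listed on the same precursor, which spells the named sequence at this site and carries mtr-miR399r on the opposite arm. lcum-miR-14959_999-3p and lcum-miR-21975_654-3p are length forms of 1 sequence, offset by 1 base, and are not independent of each other. The same holds for lcum-miR-146849_35-5p and lcum-miR-62762_148-5p.
lcum-miR-172846_26-3p: tTTAGCCGcgtcaatatctcg
mtr-MIR171b-p3_1ss20TC: tTGAGCCGcgtcaatatctcg
lcum-miR-14959_999-3p: aCAGAATAagaatgaaataaaa
lcum-miR-21975_654-3p: cAGAATAAgaatgaaataaaa

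Library depth ranged from 72853 reads (roots 2) to 997119 reads (flowers 2), counted over the features of the table. Values above 0 started at about 5 reads, since 786 of 3892 unshared whole values equalled 5, 13 were lower and none was 1 or 2, so a value of 0 means fewer than about 5 reads. Levels are given in CPM, which is reads per 1000000 reads of the library after TMM scaling, and 5 reads corresponded to 61.0 CPM in mature leaves 3 but to 4.03 CPM in flowers 2. Between 18 and 81 candidates were above 0 in a library, fewest in shoots 1 and mature leaves 3 and most in stem 3. Depth moved with this number, and its part in the absence of a candidate from a tissue was not tested. Some libraries of a tissue stood apart from each other: lcum-miR-23444_606-3p had 51.9, 321 and 768 CPM in mature leaves 1 to 3, 529, 40.8 and 8.62 CPM in the stem libraries and 66.1, 102 and 733 CPM in the young pod libraries. TMM factors ran from 0.508 in mature leaves 1 to 1.71 in roots 2. The table holds miRNA entries only, so the tissue labels were not checked against marker genes.

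Together the candidates held 72198 reads, and the 5 most abundant held 66.4% of them. Most candidates were rare, with 63 under 100 reads in all libraries together and 13 above 1000. They made up 1.45% ± 0.269 (SD, n = 3) of reads in roots, 1.25% ± 0.364 in young pods, 1.18% ± 0.0814 in stem and 0.988% ± 0.0782 in flower buds. The share was 0.932% ± 0.274 (n = 2) in flowers, 0.788% ± 0.135 in shoots and 0.60% ± 0.0698 in mature leaves. Single libraries ran from 0.527% in mature leaves 2 (95% Wilson interval 0.485% to 0.573%, counting error only) to 1.71% in roots 2 (1.62% to 1.81%). Roots and mature leaves did not overlap, while roots overlapped young pods and stem. In bulk tissue, fewer cells of a type and less RNA per cell cannot be told apart, here and in every level below.

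A test on low counts could be run for 42 of the 104 candidates, those that passed edgeR's expression filter, and the other 62 are described by detection only. With edgeR's quasi-likelihood test, 20 of the 42 (47.6%) differed over the 7 tissues at an adjusted p below 0.05, and 24 at an unadjusted p below 0.05. Of all 323 features tested, 74.3% differed, so the candidates' share was below the background. Named miRNAs of the same lengths differed in 125 of 153 cases (81.7%), and they had more reads. The highest tissue mean lay in stem for 35 of the 104 candidates, in roots for 23, in young pods for 14, in flowers for 10, in flower buds for 9, in mature leaves for 8 and in shoots for 5. In all, 5 candidates were above 0 only in stem, whose libraries had 203195 to 756217 reads against 72853 to 150453 in roots. The member rule shaped this count. It kept a candidate of 1 tissue only if all 3 libraries of that tissue were above 0. A candidate seen only in flowers, with 2 libraries, could not be kept.

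**Figure D2:**
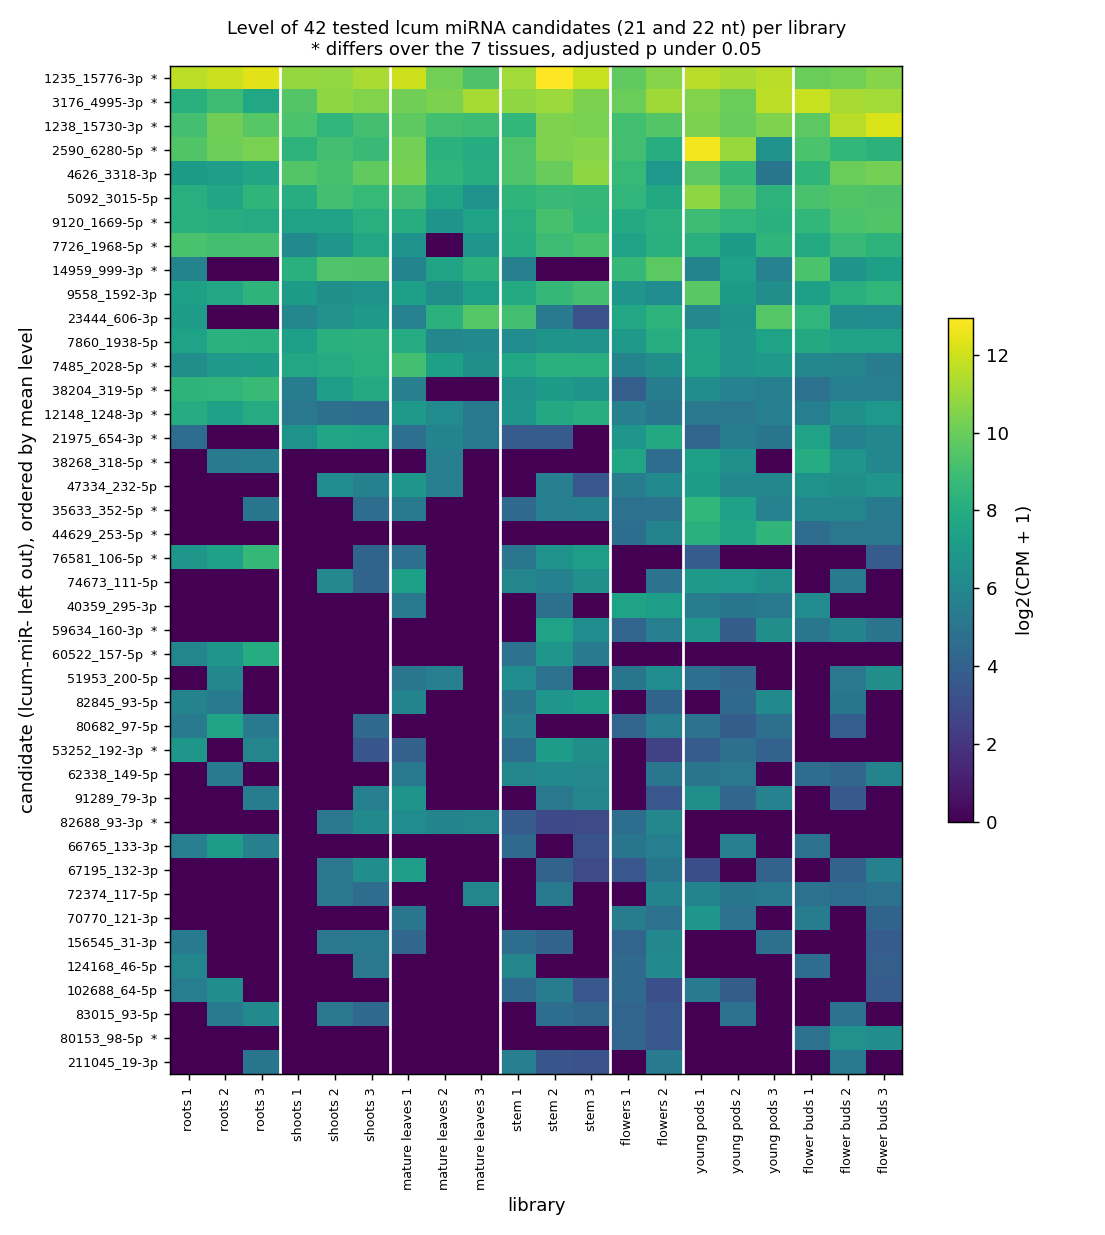
Level of the 42 tested candidates (rows, ordered by mean level) in the 20 libraries (columns, grouped by tissue) as log2(CPM + 1); a star marks the 20 that differed over the 7 tissues. The upper rows are filled in nearly every library, while most lower rows are at 0 in whole tissues.

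The most abundant candidate was lcum-miR-1235_15776-3p, the 3′ arm of the first precursor printed, with 17209 reads. It had 3269, 3856 and 5214 CPM in roots and 2299.8, 7886 and 3764 CPM in stem. It had 893 and 1571 CPM in flowers and 1041, 1161 and 1521 CPM in flower buds. Roots and stem lay above flowers and flower buds with no overlap, while mature leaves spanned 646 to 3950.0 CPM and overlapped both. It differed over the tissues (edgeR adjusted p = 0.0223), a call lost without flowers 1 (0.0806), with the authors' scaling factors (0.0704) and with no filter (0.0591). Against the mean of the other 6 tissues on the log2 scale, roots were higher by 0.99 ± 0.38 (SE, adjusted p = 0.0363), which is below the fold required for a call.

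Its opposite arm, lcum-miR-5092_3015-5p, had 3131 reads and was distributed otherwise. It had 276, 203 and 349 CPM in roots, 589, 701 and 654 CPM in flower buds and 1699, 689.7 and 327 CPM in young pods. Flower buds lay above roots in every library, the reverse of the order for the 3′ arm. The 5′ arm made up 6.35% ± 1.40 of the reads of the pair in roots and 34.6% ± 4.01 in flower buds (n = 3 each), and young pods ranged from 9.90% to 36%. The levels of the 5′ arm did not pass the test over the 7 tissues (edgeR adjusted p = 0.0536).

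The pair lcum-miR-2590_6280-5p and lcum-miR-3176_4995-3p showed the widest change in balance among the abundant pairs, with only the candidate's reads counted for the 3′ arm. The 3′ sequence that the precursor spells, gma-miR482a-3p_L-2_1ss5CA, was left out of this balance. That sequence had mean levels of 8701 CPM in roots and 27582 CPM in flower buds, against 1020.4 and 438 CPM for the 5′ arm. The 3′ candidate, the miR482-like strand, had 292, 469.9 and 215 CPM in roots. Over the 17 other libraries it ranged from 725 to 3655 CPM, so every root library lay below every other library. The 3′ arm was lower in roots, with a log2 difference of -2.45 ± 0.46 (SE, edgeR adjusted p = 0.000229), and this call was kept in 32 of 32 alternative settings. The 5′ arm had 683, 1094 and 1285 CPM in roots, and its root mean of 1020.4 CPM was below those of stem and young pods and above those of the other 4 tissues. Of the reads of this candidate pair alone, it made up 70.1%, 70.0% and 85.7% in roots but 14.5%, 13.4% and 12.4% in flower buds.

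Within young pods the libraries of this pair disagreed. The 5′ arm had 6767, 1969.9 and 95.0 CPM in young pods 1 to 3, and the 3′ arm had 1432, 1039.8 and 3271 CPM. The 5′ arm thus held 82.5%, 65.5% and 2.82% of the pair, a spread as wide as that between tissues. lcum-miR-2590_6280-5p differed over the 7 tissues (edgeR adjusted p = 0.0280), and this call was lost without young pods 1 (0.129) and without roots 2 (0.0514).

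**Figure D3:**
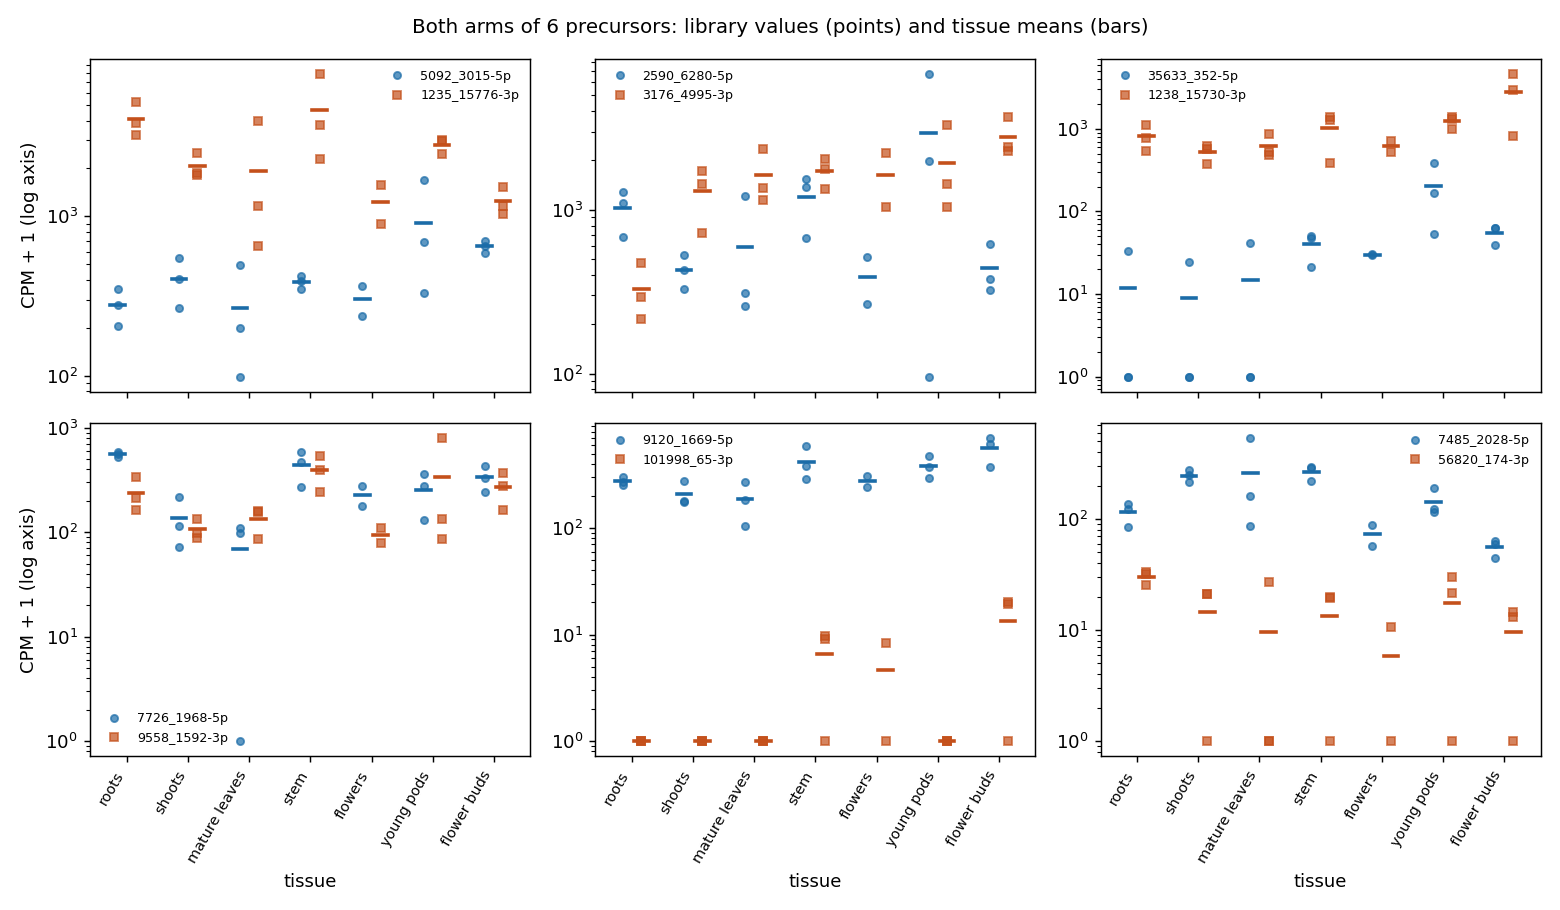
Level of both arms of 6 precursors (CPM + 1, logarithmic axis) by tissue, with circles for the 5′ arm, squares for the 3′ arm and bars for tissue means. In the second panel the 3′ sequence is lcum-miR-3176_4995-3p, which differs from its precursor by T21C. It falls below the 5′ arm in roots (325 against 1020.4 CPM) and lies above it in flower buds (2784 against 438 CPM). The named miRNA that the precursor spells, gma-miR482a-3p_L-2_1ss5CA, is not plotted.

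Since lcum-miR-3176_4995-3p is 1 base from a named miRNA with 144700 reads, the levels of both were compared library by library. The candidate had 11186 reads, 7.73% of those of gma-miR482a-3p_L-2_1ss5CA. Its share of that miRNA was 3.56%, 4.09% and 3.34% in roots and 11.2%, 10.2% and 8.64% in flower buds. It was lowest in the 3 root libraries, below every library of the other tissues, and highest in young pods 3 with 13.1%. The named miRNA was itself at 8701 ± 2568 CPM in roots and at 27582 ± 4601 CPM in flower buds, so the candidate and its relative were low in the same tissue. The part of misread copies of the relative in the candidate's reads was not tested.

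**Figure D4:**
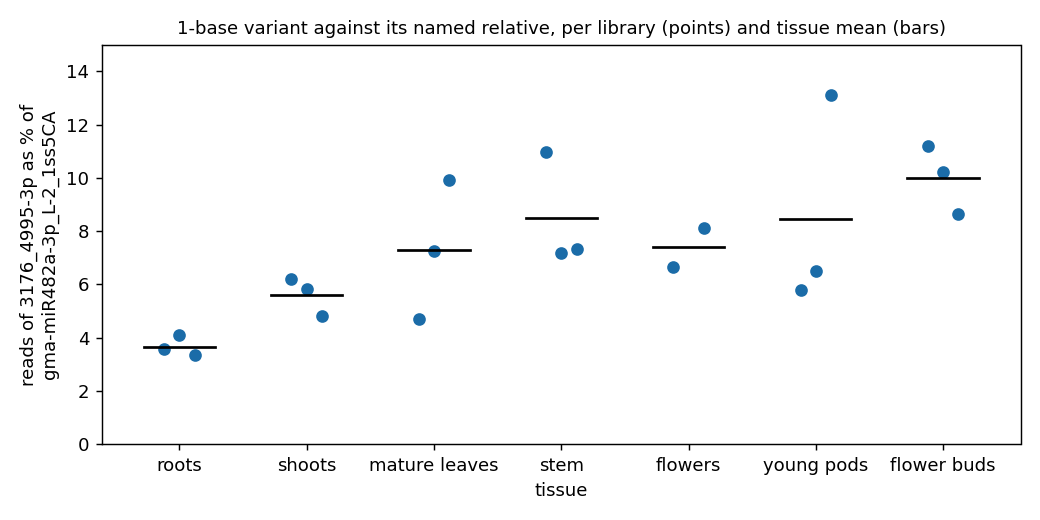
Reads of lcum-miR-3176_4995-3p as a percent of the reads of gma-miR482a-3p_L-2_1ss5CA, 1 base away, in each library (points) with tissue means (bars). Root libraries sit between 3.34% and 4.09%, below all others, and young pods 3 is highest at 13.1%.

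lcum-miR-1238_15730-3p, with 8115 reads, had 808, 2959 and 4663 CPM in flower buds and between 369 and 1398 CPM in the other libraries. Flower buds 2 and 3 lay above all other libraries, and flower buds 1 did not. It differed over the 7 tissues (edgeR adjusted p = 0.00609). Its 5′ arm, lcum-miR-35633_352-5p, had 382, 167 and 52.8 CPM in young pods and was at 0 in 2 of 3 libraries each of roots, shoots and mature leaves. That call over tissues (adjusted p = 0.0381) was lost without young pods 1 (0.217).

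lcum-miR-4626_3318-3p, exact in its precursor with no opposite arm listed, had 130.4, 146 and 204 CPM in roots against a mean of 670.2 CPM over the other tissues. Its values outside roots spread from 31.7 CPM in young pods 3 to 1700.0 CPM in stem 3, so roots overlapped the rest. It was lower in roots, with a log2 difference of -1.91 ± 0.72 (SE, edgeR adjusted p = 0.0325), a call lost in 9 of 32 settings, among them without roots 1, 2 or 3 (0.0951 to 0.136), shoots 3 (0.0617), stem 3 (0.0583), young pods 1 (0.0556) or young pods 2 (0.0569). It was also lost with library size alone (0.104) and with the other libraries as 1 group (0.0516). Its adjusted p over the 7 tissues was 0.0709.

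lcum-miR-9120_1669-5p was above 0 in all 20 libraries. It had 253 to 299 CPM in roots and 375, 612 and 697 CPM in flower buds, and its tissue means lay between 186 CPM in mature leaves and 562 CPM in flower buds. Its call over tissues (edgeR adjusted p = 0.0405) was lost without shoots 3 (0.0514), mature leaves 2 (0.0781) or mature leaves 3 (0.0708), and with no filter (0.340). Its 3′ arm, lcum-miR-101998_65-3p, had 32.5 reads against 2397 for the 5′ arm. lcum-miR-7860_1938-5p had tissue means of 92.1 to 263 CPM and did not pass the test (0.193), and its opposite arm had 16 reads. The 5′ arm was the major one in 9 of the 15 precursors with both arms exact, and the 3′ arm in 6.

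In roots against the mean of the other 6 tissues, 9 of the 42 tested candidates were higher and 6 were lower, at an edgeR adjusted p below 0.05 and a log2 difference of at least 1. With the other libraries taken as 1 group, 2 were higher and 3 lower. The lower count was 2 without roots 2, shoots 3 or young pods 2 and 3 without roots 3, shoots 2 or young pods 1. Over all features tested, 32.2% were higher and 19.8% lower, so neither count of candidates exceeded the background. The median log2 difference was -0.09 over the 42 candidates and -0.08 over all 323 features. Fitted fold changes of single candidates are given only for those that were above 0 in every tissue, because the others rest on tissues at 0. The medians include all tested candidates.

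lcum-miR-38204_319-5p, a 22 nt sequence exact in its precursor with no opposite arm listed, was the clearest case by its levels. The predicted minimum free energy of its precursor was -26.1 kcal/mol per 100 bases, against a median of -37.0 over the candidates. This candidate had 338, 365 and 441 CPM in roots. The next tissue was shoots with 44.2, 154 and 239 CPM, and mature leaves had 48.2, 0 and 0 CPM. Every root library lay above every other library. Roots were higher by 2.81 ± 0.52 on the log2 scale (edgeR adjusted p = 0.000197), and the call was kept in 32 of 32 settings.
lcum-miR-38204_319-5p: tGGAGCTGagaatgaagagtga

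A group of candidates was high in roots and stem together. lcum-miR-12148_1248-3p had 261, 170.1 and 247 CPM in roots and 111, 225 and 271 CPM in stem, and shoots had 35.4, 26.9 and 23.5 CPM. Roots and stem overlapped, and both lay above shoots, flowers and young pods. Its root contrast was 1.84 ± 0.41 on the log2 scale (edgeR adjusted p = 0.000949), lost in 2 of 32 settings: no filter (0.197) and the other libraries taken as 1 group (0.0683).

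lcum-miR-7726_1968-5p had 591, 527 and 559 CPM in roots and 271, 472 and 586 CPM in stem, again overlapping. Its root contrast was 1.42 ± 0.47 (edgeR adjusted p = 0.0169), lost in 5 of 32 settings: without roots 2 (0.0615), without flowers 1 (0.0797), with the authors' scaling factors (0.307), with no filter (0.264) and with the other libraries as 1 group (0.15). Its opposite arm, lcum-miR-9558_1592-3p, had 161, 211 and 339 CPM in roots and 796, 133 and 84.4 CPM in young pods and passed neither test. The 5′ arm held 78.6%, 71.4% and 62.3% of this pair in roots.

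lcum-miR-76581_106-5p, exact in its precursor but not on a hairpin arm by the rule above, had 115, 170.1 and 398 CPM in roots and 32.8, 96.0 and 145 CPM in stem. Of the other 14 libraries 4 were above 0, at 12 to 26 CPM, and those are close to the level of 5 reads. Every root library lay above every library outside stem. Its root call (edgeR adjusted p = 0.000107) was kept in 32 of 32 settings. It was also called lower in reproductive than in aerial vegetative tissues (adjusted p = 0.0208), lost without shoots 3 or mature leaves 1 (0.9998 each), flowers 1 (0.0724) or flowers 2 (0.120).
lcum-miR-76581_106-5p: tTCTTTGTcggatgaggcacca

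lcum-miR-60522_157-5p was above 0 only in roots and stem. It had 61.4, 113 and 258 CPM in roots and 28.7, 114 and 41.4 CPM in stem, with 0 in the other 14 libraries. Its opposite arm, mtr-miR171g, had mean levels of 119 CPM in roots and 59.0 CPM in stem and 0 in the other 5 tissues. Both strands were thus above 0 in roots and stem only, but the 5′ arm held 25.0%, 46.7% and 85.7% of the pair in roots 1 to 3. The root call (edgeR adjusted p = 5.64e-05) was kept in 31 of 32 settings and lost with the other libraries taken as 1 group (0.0614). The candidate met the member rule and the expression filter through roots and stem alone, so this call is no separate support for the pattern.

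The remaining candidates called higher in roots were near the detection limit, and only lcum-miR-53252_192-3p among them was also called over the 7 tissues. Neither lcum-miR-80682_97-5p (G1T) nor lcum-miR-66765_133-3p (C20T) is exact in its precursor or on a hairpin arm by the rule above. lcum-miR-102688_64-5p is exact but not on a hairpin arm. lcum-miR-53252_192-3p had 115, 0 and 59.1 CPM in roots and a higher mean in stem (81.3 ± 55.2 CPM, n = 3) than in roots (58.1 ± 57.6 CPM). Its call (edgeR adjusted p = 0.00726) was lost without roots 1 (0.0601) and with the other libraries as 1 group (0.398). lcum-miR-80682_97-5p had 38.4, 186 and 37.6 CPM in roots, and its call (0.0170) was lost without roots 2 (0.256) or flowers 1 (0.0650), with the authors' scaling factors (0.0541), with DESeq2 (0.0612) and with the other libraries as 1 group (0.0852). lcum-miR-66765_133-3p had 46.0, 138 and 48.4 CPM in roots, and its call (0.0126) was lost without roots 2 (0.104), with DESeq2 (0.114) and with the other libraries as 1 group (0.105). lcum-miR-102688_64-5p had 46.0, 81.0 and 0 CPM, and its call (0.0230) was lost without flowers 1 (0.0643) or flowers 2 (0.0538), with the authors' scaling factors (0.0674), with DESeq2 (0.102), with no filter (0.0662) and with the other libraries as 1 group (0.219).

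Among the candidates lower in roots besides the miR482-like strand and lcum-miR-4626_3318-3p, the length forms lcum-miR-14959_999-3p and lcum-miR-21975_654-3p were low in roots and stem alike. Neither form is exact in its listed precursor, with G2C in the longer and G1C in the shorter, and neither has an opposite arm listed. lcum-miR-14959_999-3p had 53.7, 0 and 0 CPM in roots and 49.2, 0 and 0 CPM in stem. It had 301, 665 and 649 CPM in shoots, 386 and 828 CPM in flowers and 623, 102 and 163 CPM in flower buds. Shoots and flowers lay above roots and stem without overlap, the reverse of the group high in roots and stem. It differed over the 7 tissues (edgeR adjusted p = 0.00900, kept in 31 of 31 settings), and so did the shorter form (0.00753, kept in 31 of 31). Their root calls were weaker (0.0365 and 0.0361) and were lost in 11 and 13 of 32 settings, among them without roots 2 (0.163 and 0.116) and without roots 3 (0.190 and 0.215).

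The other single libraries whose absence ended these calls were shoots 2, shoots 3, young pods 2 and flower buds 1 for both forms, stem 1 for the longer form, and flowers 2 and young pods 1 for the shorter (adjusted p of 0.0539 to 0.9998). Both were also lost with DESeq2's size factors, library size alone, entries summed and the other libraries as 1 group (0.0526 to 0.111).

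lcum-miR-47334_232-5p was at 0 in the 3 root libraries. It had 99.8, 86.2 and 108 CPM in flower buds and 142, 65.3 and 63.3 CPM in young pods, and it was at 0 in shoots 1, mature leaves 3 and stem 1. Set against 5 reads per library, it was at least 1.70-fold lower in roots than on average elsewhere, and its call (edgeR adjusted p = 0.00858) was kept in 32 of 32 settings. lcum-miR-74673_111-5p, also at 0 in roots, had 127, 120.2 and 89.7 CPM in young pods and was at least 1.36-fold lower in roots. Its call (0.0478) was lost in 18 of 32 settings, 14 of them with 1 library left out: roots 1, 2 or 3 (0.126 to 0.140), shoots 2 or 3, mature leaves 1, stem 1, 2 or 3, flowers 2, young pods 1, 2 or 3, or flower buds 2. The other 4 were DESeq2's size factors (0.0584), library size alone (0.0789), entries summed (0.0506) and rounding to even (0.0522). Neither lcum-miR-47334_232-5p nor lcum-miR-74673_111-5p was called over the 7 tissues.

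Reproductive tissues, here flowers, flower buds and young pods, were set against the aerial vegetative tissues, here shoots, mature leaves and stem. In this comparison 5 of the 42 tested candidates were higher and 3 lower, against 16.4% and 13.6% of all features tested. The median log2 difference was 0.68 over the 42 candidates and 0.14 over all 323 features, which is a description and has no test. The candidates' median includes fitted values that rest on tissues at 0. The share of candidates called higher, 11.9%, was below the 16.4% of all features. The count of higher candidates moved between 4 and 13 when single libraries were left out, and it was 13 without young pods 3, 11 without roots 2, 10 without mature leaves 1, stem 2 or flower buds 3, 8 without roots 3 or flower buds 2, and 12 when counts halfway between whole numbers were rounded to the even one. The lower count was 1 without mature leaves 1 or flowers 2 and 0 without flowers 1.

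lcum-miR-44629_253-5p, a 22 nt sequence exact in its precursor with no opposite arm listed, was above 0 in every reproductive library and in no other. It had 293, 188 and 353 CPM in young pods, 24.8 and 54.7 CPM in flowers and 23.8, 34.0 and 35.9 CPM in flower buds. Every young pod library lay above every flower and flower bud library. Set against 5 reads per library, the reproductive mean was at least 4.02-fold higher than the vegetative one. It differed over the 7 tissues (edgeR adjusted p = 6.25e-05) and between reproductive and vegetative tissues (4.76e-05), and both calls were kept in 31 of 31 settings. It met the member rule and the expression filter through reproductive libraries alone. These p-values and settings are therefore no separate support for its pattern.
lcum-miR-44629_253-5p: tTTGTGAGaagaccaaaccaaa

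lcum-miR-38268_318-5p had 257, 109 and 64.7 CPM in flower buds, 191 and 23.3 CPM in flowers and 160.3, 88.8 and 0 CPM in young pods. Shoots and stem were at 0, mature leaves had 0, 47.2 and 0 CPM, and roots had 0, 40.5 and 43.0 CPM. The reproductive call (edgeR adjusted p = 0.00143) was kept in 31 of 31 settings, although young pods 3 overlapped the vegetative libraries at 0.
lcum-miR-38268_318-5p: gGGTCGATctgagatcacatg

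lcum-miR-40359_295-3p had its highest values in flowers, with 184 and 145 CPM there and no more than 76.0 CPM in any other library. It was not called over the 7 tissues. Its reproductive call (edgeR adjusted p = 0.0442) was lost without flower buds 1 (0.9998), shoots 3 (0.0549), mature leaves 2 (0.0691), mature leaves 3 (0.0659) or stem 1 (0.0575), and with DESeq2 (0.0895). lcum-miR-59634_160-3p, from a precursor with 2 nt overhangs, was at 0 in roots, shoots and mature leaves and had 0, 176 and 77.6 CPM in stem. Its highest tissue mean was thus in stem (84.4 ± 88.0 CPM, n = 3) although it was called higher in reproductive tissues (0.0147, kept in 31 of 31 settings). lcum-miR-70770_121-3p had 112, 28.7 and 0 CPM in young pods and was at 0 in roots, shoots and stem. Its call (0.0169) was lost with DESeq2 (0.0829), and it was not called over the 7 tissues.

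lcum-miR-80153_98-5p was above 0 only in flower buds, with 28.5, 93 and 79 CPM, and flowers, with 17.7 and 10.5 CPM. It differed over the 7 tissues (edgeR adjusted p = 0.00467), a call lost with DESeq2 (0.537). It met the member rule and the expression filter through flowers and flower buds alone, so this call is no separate support for the pattern. The reproductive mean of 27.0 CPM was not above the level of 5 reads in the vegetative tissues, so no fold is given. Its precursor spells the 3′ arm as mtr-MIR171b-p3_1ss20TC, which had 9257 reads and a mean of 2047 CPM in flower buds. The miR171-like candidate listed on this precursor, lcum-miR-172846_26-3p, differs from that arm by G3T. This candidate was above 0 in flowers, young pods 1 and 2 and stem 2, and not in flower buds. It had 74 reads and was not tested.

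The 3 candidates lower in reproductive tissues were lcum-miR-76581_106-5p, lcum-miR-7485_2028-5p and lcum-miR-82688_93-3p. lcum-miR-7485_2028-5p had 217, 292 and 284 CPM in stem, 212, 248 and 272 CPM in shoots and 61.8, 59.0 and 43.1 CPM in flower buds. Mature leaves spread from 85.4 to 534 CPM and young pods from 115 to 188 CPM, so the groups overlapped through mature leaves 2 and 3. It was lower in reproductive tissues, with a log2 difference of -1.64 ± 0.36 (SE, edgeR adjusted p = 0.00163). The call was lost without flowers 1 (0.10), with no filter (0.135) and, because the difference fell to -0.94, without mature leaves 1. It also differed over the 7 tissues (0.0118), which was lost without flowers 1 (0.167), flowers 2 (0.0982), young pods 3 (0.0527) or flower buds 3 (0.0680), and with no filter (0.329).

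lcum-miR-82688_93-3p, a 22 nt sequence, was the only candidate called over the 7 tissues with its highest mean in mature leaves. A 23 nt form with 1 more base at the 5′ end, lcum-miR-55998_178-3p, had 285 reads against 148.5 for the 22 nt form. The 23 nt form had a mean of 8.60 CPM in flower buds. The 22 nt form had 77.9, 56.6 and 61.0 CPM in mature leaves, 0, 33.6 and 70.6 CPM in shoots and 24.8 and 62 CPM in flowers. This 22 nt form was at 0 in every library of roots, young pods and flower buds, and had 6.13 to 12.3 CPM in stem. It differed over the 7 tissues (edgeR adjusted p = 0.00298, kept in 31 of 31 settings). The reproductive call (0.00610) was lost without flowers 1 (0.0603) or flowers 2 (0.0622), and leaving out either leaves flowers with 1 library.
lcum-miR-82688_93-3p: cTATTTGAttttgagcacgcgt

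**Figure D5:**
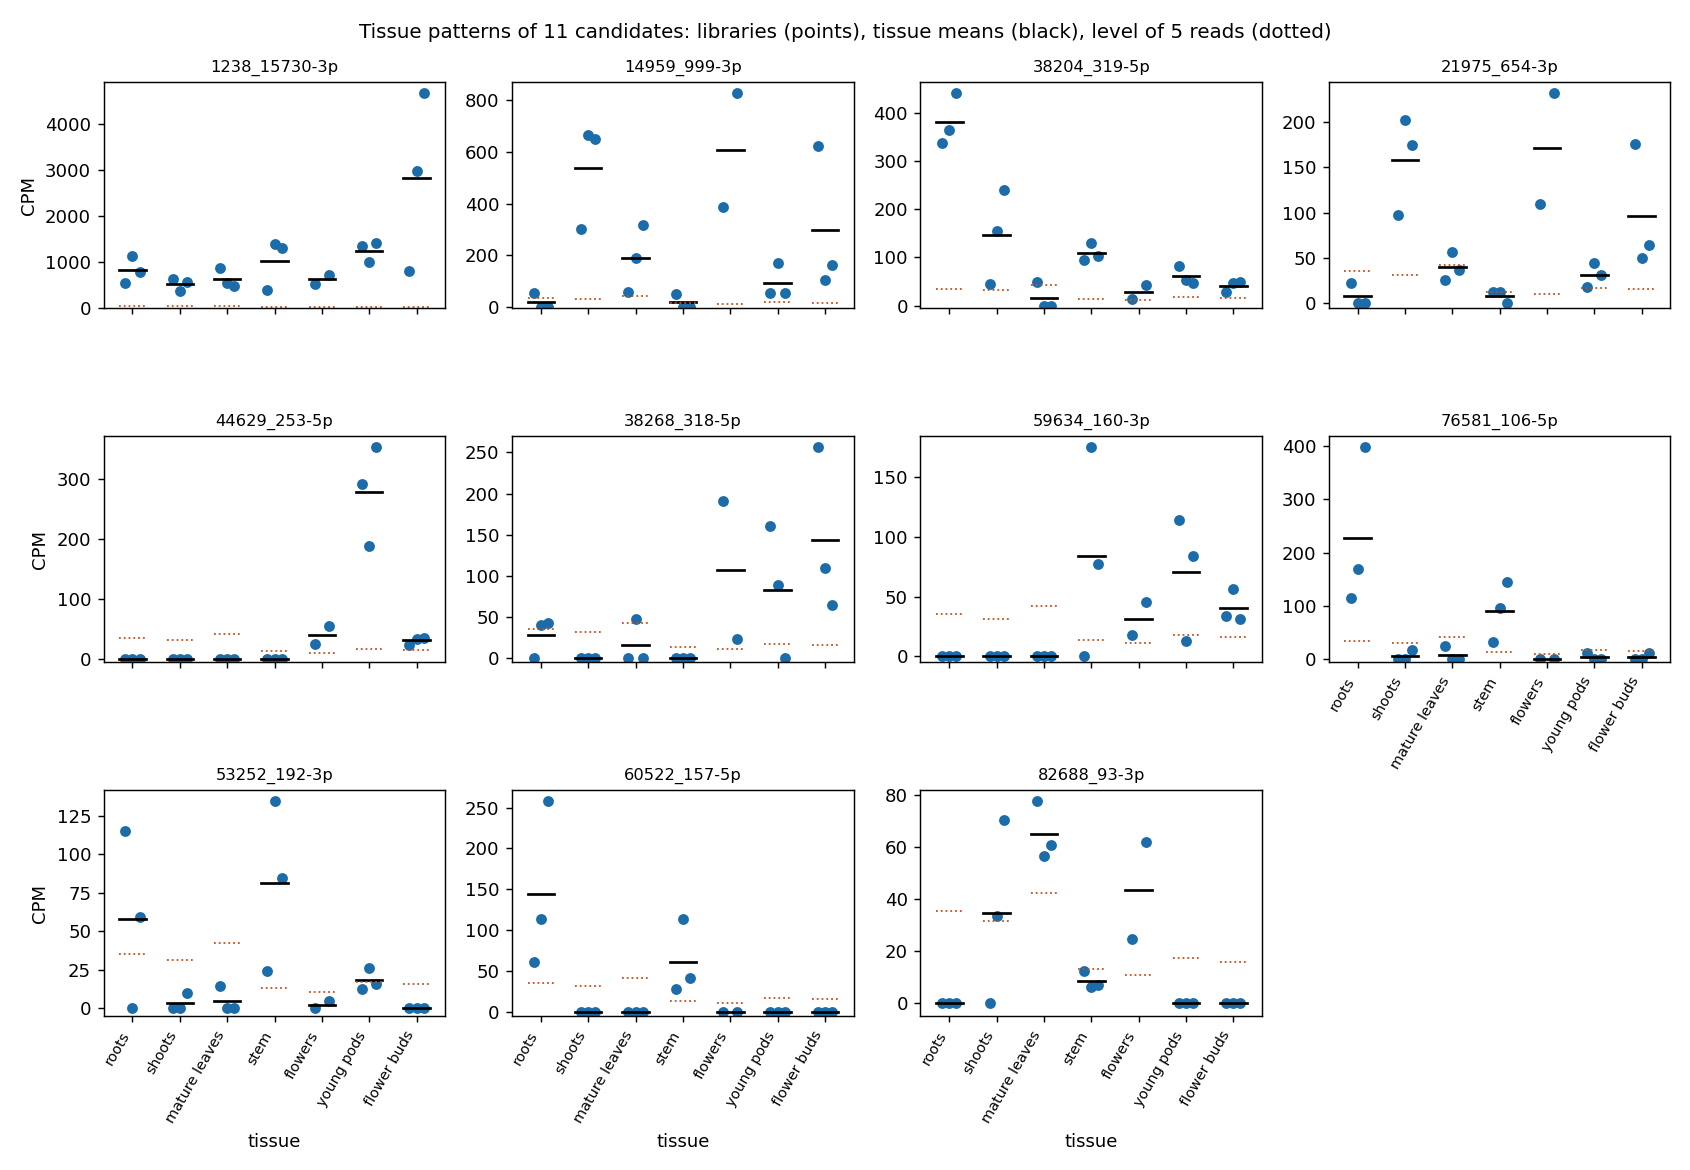
Level in CPM (linear axes from just below 0) of the 11 candidates whose call over the 7 tissues was kept in every setting, in each library (points) by tissue, with black bars for tissue means and dotted lines for the mean level of 5 reads in that tissue. lcum-miR-38204_319-5p is highest in the 3 root libraries (338 to 441 CPM), lcum-miR-60522_157-5p appears in roots and stem only, lcum-miR-44629_253-5p appears in reproductive tissues only and lcum-miR-14959_999-3p is low in roots and stem.

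Across the 7 tissue means, the feature most like lcum-miR-1235_15776-3p was the candidate lcum-miR-53252_192-3p (Spearman correlation 0.929, n = 7 tissues), followed by mtr-MIR159b-p5_1ss11CT (0.893). The features most like lcum-miR-3176_4995-3p were lcum-miR-35633_352-5p (0.929) and csi-miR166c-5p_L-1R+1_1ss5AT (0.927). These correlations describe the order of 7 means that share libraries and scaling, and they carry no p.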

How the data were processed

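Per the labels' protocols, pooled material was extracted with TRI Reagent and the Sigma Spectrum plant kit, and TruSeq Small RNA libraries were prepared. How reads were trimmed, aligned and called as miRNAs, and on which build, is not stated in the labels. The authors deposited 1 table with estimated counts per library, some of them fractional because reads were shared between entries, and a normalized signal per library, from which only their scaling factor was taken. From the deposited file, 7 emptied lines were left out, and 1642 rows gave 1464 features after collapsing by mature sequence. Among member values above 0, 160 of 865 were not whole to 0.01.

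Estimated counts were rounded to whole numbers, upward from midway, and fitted with edgeR 4.0.16 in R 4.3.3 (TMM scaling, filterByExpr by tissue, glmQLFit and glmQLFTest on tissue, 20 libraries), and Benjamini-Hochberg adjustment ran over all 323 features tested. Depth was 72853 to 997119 reads, and intervals cover counting error only. Precursors were folded with RNAfold 2.7.2 at 37 degrees C. Alternatives were DESeq2 1.42.0, other scaling, no filter, summed entries, stricter member rules, a replicate block and each library left out.

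The members, lists and tests were chosen with earlier results of these data known. Named were members with both arms, the 12 of highest mean CPM, the 6 largest called differences in each direction, the 2 highest called members of each tissue, the members at the edge of the rule, those within 2 changes of a named miRNA and the 2 features most alike to each of the 2 most abundant. No whole-genome sequence was used here, so positions in the genome are not given.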

Additional observations from a re-analysis of the deposited data

How the results depend on the processing

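No candidate called in the root or the reproductive contrast changed sign there in any setting in which it was tested. The test over the 7 tissues has no sign. The 20 candidates differing over the 7 tissues became 19 to 26 when single libraries were left out, 23 with DESeq2, 25 with no filter and 26 with counts midway between whole numbers rounded to the even one, a rounding chosen after seeing the data. The 9 candidates higher in roots became 6 to 13 with single libraries left out and 2 with the other libraries taken as 1 group. The 6 lower in roots became 2 to 6 with single libraries left out, 3 with DESeq2's size factors, 2 with library size alone, 3 with entries summed, 3 among exact members only and 3 with the other libraries as 1 group. The 5 higher in reproductive tissues became 4 to 13 with single libraries left out, 9 with no filter, 8 with entries summed and 12 with the rounding to even, and the 3 lower became 0 to 3, with 0 without flowers 1. With entries summed, the share of reads in flower buds was 1.14%. Deviations from tissue means in same-numbered libraries of different tissues correlated at -0.34 to 0.29 (median 0.03). For libraries with other numbers this was -0.32 to 0.33 (median -0.02). Of 20 libraries, 9 correlated best with their own number. No clear pairing by number was seen, but so weak a check cannot exclude one. A replicate block gave 19 differing, 8 and 6 in roots and 5 and 3 in reproductive tissues. Under that block the calls over tissues of lcum-miR-9120_1669-5p (0.259), lcum-miR-7485_2028-5p (0.0750) and lcum-miR-35633_352-5p (0.0542) and the root calls of lcum-miR-21975_654-3p (0.0614) and lcum-miR-102688_64-5p (0.0769) passed the threshold no longer. Leaving out 1 flower library leaves the other, which is then assumed to vary like the other tissues. Roots and mature leaves 2 and 3 were shallow, so a candidate under about 27 to 61 CPM could be at 0 there. The causes of these shifts were not tested.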
